A study of Mus musculus with 2 samples.

Results

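The BMP, TGF-beta and activin signalling genes described here are 48 genes taken by symbol from a fixed list, of 43346 Ensembl genes in the tables, and all 48 were found. They comprise 11 ligands, 12 receptors, 9 antagonists and modulators, 8 Smads, 4 Id target genes and 4 latent TGF-beta binding proteins. The series measured total RNA from whole stomachs of B6NCrl mouse embryos at embryonic day 15.5, each library from a pool of male and female embryos. It holds 1 group of 2 libraries, which the labels number as biological replicates: replicate 1 pooled 78 embryos and replicate 2 pooled 62. No genotype or treatment is given, no second condition was analysed here, and the tables therefore answer how high each gene stood and how far the pools differed.

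Members of this superfamily are secreted as dimers that bring together type I and type II serine/threonine kinase receptors. The activated type I receptor phosphorylates receptor Smads, Smad1, Smad5 and Smad9 for most BMPs and Smad2 and Smad3 for TGF-betas and activins, which enter the nucleus with the shared partner Smad4. Id genes are classical direct targets of BMP signals. In the developing stomach, BMPs act between epithelium and mesenchyme, and the antagonists noggin, gremlin and follistatin bind the ligands outside the cell.

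The tables assigned 43209506 and 44257493 expected counts to genes. Marker genes of gastric mesenchyme (Barx1, 154 ± 17.2 TPM), squamous epithelium (Krt15, 699 ± 184 TPM) and glandular epithelium (Epcam, 346 ± 17.9 TPM) were all detected, as were those of liver, red cells, exocrine pancreas and striated muscle. Values are TPM, a gene's share of all transcripts after division by transcript length, and errors are SDs over the libraries (n = 2). In whole-organ RNA, fewer cells of a type and less RNA per cell cannot be told apart.

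Members of every role were detected. Taking a level of at least 1 TPM in each library as detection, 46 of the 48 members (95.8%) were detected, beside 64.5% of all protein-coding genes. At 10 TPM or more there were 29 members (60.4%), beside 41.0% of protein-coding genes. Members were chosen with earlier results of these data known, so these shares describe the list and not the whole pathway. In a second list of the same pathways, described below, 68 of 95 genes (71.6%) were detected. The median member stood at 14.0 and 14.8 TPM in replicates 1 and 2, and the median protein-coding gene at 5.70 and 5.72 TPM. The 2 members not detected were the activin subunit Inhbb and the binding protein Ltbp2. Their counts were well above 0, at 126 and 98 for Inhbb and 143 and 95.4 for Ltbp2, so both were measured, only low. The lowest count of any member in a library was 67, for Nog in replicate 2.

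**Figure D1:**
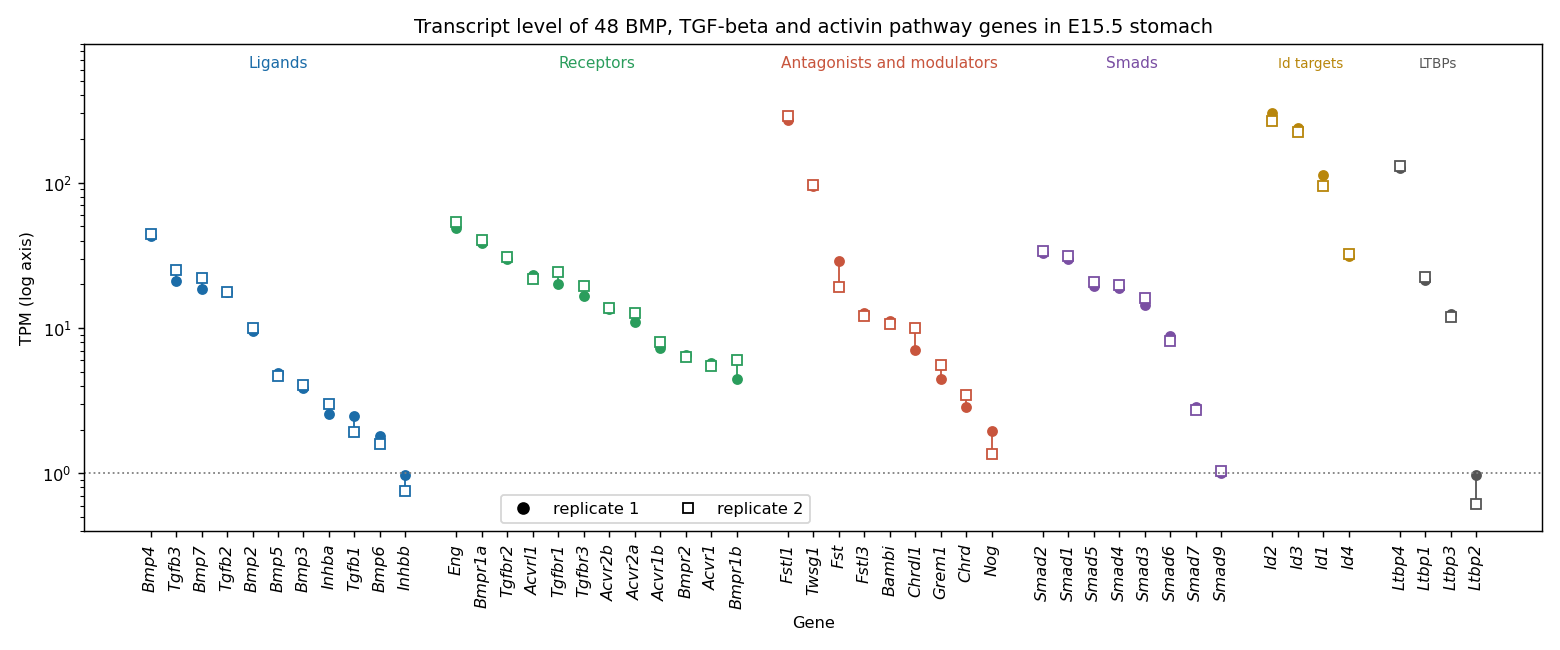
TPM on a log axis (vertical) of the 48 members (horizontal), grouped by role and ordered by mean level within each role. Filled circles are replicate 1, open squares replicate 2, each point is 1 library, and the dotted line marks 1 TPM. Id2, Id3 and Fstl1 stand above 200 TPM in both libraries, while Inhbb and Ltbp2 lie below the line.

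Among the BMP ligands, Bmp4 was highest. Bmp4, a BMP of gut mesenchyme (ENSMUSG00000021835.10; mm10 chromosome 14, 46383520 to 46390669), was at 42.9 and 44.5 TPM in replicates 1 and 2. Bmp7, a relative that can pair with other BMPs, followed at 18.6 and 22.0 TPM, and Bmp2 at 9.58 and 10.1 TPM. Both libraries gave the same order. Bmp5 (4.88 and 4.70 TPM), Bmp3 (3.87 and 4.04 TPM) and Bmp6 (1.81 and 1.59 TPM) were lower still. On the log2 scale the level of Bmp4 exceeded that of Bmp7 by 1.11 ± 0.13 and that of Bmp2 by 2.15 ± 0.01. The level of Bmp6 was lower than that of Bmp4 by 4.69 ± 0.17. Each difference was larger than the spread between the libraries.

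Of the TGF-beta ligands, Tgfb3 and Tgfb2 stood well above Tgfb1. Tgfb3 (chromosome 12, 86056745 to 86079041) was at 21.1 and 24.9 TPM and Tgfb2 at 17.6 and 17.8 TPM. Tgfb1, the form most widely found in blood and immune cells, was at 2.49 and 1.94 TPM, lower than Tgfb3 by a log2 difference of 3.38 ± 0.42. Much of the Tgfb2 value lay on short transcripts without a coding sequence. From protein-coding transcripts alone, Tgfb2 was at 8.04 and 9.45 TPM and Tgfb3 kept its 21.1 and 24.9 TPM, which raised the log2 difference between them from 0.37 ± 0.16 to 1.40. The activin subunits were low, with Inhba, the activin A subunit, at 2.56 and 2.98 TPM and Inhbb at 0.980 and 0.760 TPM, the lowest of the 11 ligands in both libraries.

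All 12 receptor genes were detected. Bmpr1a, the type I receptor for BMP2 and BMP4 (chromosome 14, 34410734 to 34503341), was at 38.6 and 40.5 TPM, and its close relative Bmpr1b at 4.48 and 5.99 TPM. The ranges did not overlap, and the log2 difference was 2.93 ± 0.25. Acvrl1, a type I receptor of endothelium, was at 23.1 and 21.9 TPM, and Acvr1, another type I receptor for BMPs, at 5.75 and 5.51 TPM. For TGF-beta and activin, the type I receptor Tgfbr1 was at 20.0 and 24.2 TPM and the activin type I receptor Acvr1b at 7.28 and 8.07 TPM.

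Type II receptors were led by Tgfbr2, which binds TGF-beta (29.9 and 30.9 TPM). Behind it came the activin type II receptors Acvr2b (13.6 and 13.7 TPM) and Acvr2a (11.1 and 12.7 TPM). Bmpr2, which binds BMPs, was lowest per length at 6.52 and 6.33 TPM, a log2 difference of 2.24 ± 0.06 below Tgfbr2. The co-receptor Eng, which is abundant on endothelium, was the highest receptor gene at 48.9 and 53.3 TPM, and Tgfbr3, betaglycan, which presents TGF-beta2, was at 16.7 and 19.4 TPM. Of the 6 endothelial markers, only Egfl7 (99.9 and 104 TPM) stood above Eng. Pecam1 (36.6 and 39.6 TPM) stood between Eng and Acvrl1. Cdh5 (22.15 and 23.82 TPM) and Kdr (18.74 and 22.03 TPM) overlapped Acvrl1 in range. Tie1 (16.87 and 18.7 TPM) and Tek (9.43 and 9.39 TPM) stood below it. How much of Eng or Acvrl1 came from endothelium was not tested.

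Extracellular modulators covered the widest range. Fstl1, a follistatin-like glycoprotein of mesenchyme (chromosome 16, 37776873 to 37836514), was at 272 and 286 TPM, above 97.7% of protein-coding genes. Twsg1, which can help or hinder chordin and BMP, was at 94.8 and 96.0 TPM. The dedicated BMP antagonists were much lower. Chrdl1, chordin-like 1, was at 7.02 and 9.99 TPM, and Grem1, gremlin, at 4.43 and 5.60 TPM. Chrd, chordin, was at 2.88 and 3.45 TPM, and Nog, noggin (chromosome 11, 89300638 to 89302332), at 1.95 and 1.35 TPM. Each of these 4 stood below Bmp4 in both libraries. Fst, follistatin, which binds activins (chromosome 13, 114452290 to 114458951), was at 29.1 and 19.2 TPM. Both Fst values lay far above those of the activin subunits Inhba and Inhbb. Fstl3, a related activin binder, was at 12.8 and 12.1 TPM, and Bambi, a receptor without a kinase that damps signals, at 11.1 and 10.7 TPM. No neighbours in the order of these 9 modulators overlapped between the libraries.

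The Smads of both branches were detected, with Smad9 lowest. Smad1, a BMP receptor Smad, was at 29.9 and 31.5 TPM, Smad5, of the same branch, at 19.3 and 20.8 TPM and Smad9 at 1.00 and 1.03 TPM. Smad9, with 162 and 168 counts, was therefore at the 1 TPM threshold taken here as detection. It stood a log2 difference of 4.92 ± 0.02 below Smad1. In the TGF-beta branch Smad2 was at 33.0 and 33.7 TPM and Smad3 at 14.4 and 16.0 TPM, and the common partner Smad4 was at 19.0 and 19.8 TPM. The inhibitory Smads, which signals induce as feedback, were lower, Smad6 at 8.85 and 8.13 TPM and Smad7 at 2.88 and 2.73 TPM.

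The Id genes, which encode helix-loop-helix proteins that keep other factors off DNA, were the highest group. Id2 (chromosome 12, 25093799 to 25097140) was at 304 and 266 TPM. Id3 (chromosome 4, 136143497 to 136145755) was at 240 and 224 TPM. Id1 (chromosome 2, 152736251 to 152737410) was at 113 and 95.1 TPM, and Id4 at 31.3 and 32.1 TPM. Id1, Id2 and Id3 were each lower in replicate 2, while Id4 lay within its counting error. The median Id gene exceeded the median receptor gene by a log2 difference of 3.41 ± 0.19.

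To show start regions of BMP target genes that did and did not differ between the pools, those of Id2, Id3, Id4 and Smad6, a feedback target, are given. No window was used for Id1. They run from 250 bases before to 50 bases after the start, on the gene's strand, 5′ to 3′, from RefSeq on GRCm38.p6. RefSeq starts need not match the gene coordinates given here, which are from GENCODE. The Id2 and Id3 windows lie inside those gene spans. The Id4 window lies wholly before its gene span (chromosome 13, 48261228 to 48266026). The windows are chr12:25096043-25096342 (minus strand) for Id2, chr4:136143572-136143871 (plus) for Id3, chr13:48260866-48261165 (plus) for Id4 and chr9:64022010-64022309 (minus) for Smad6. Capitals mark GGCGCC, a GC-rich element known from BMP-responsive enhancers, and GTCTAGAC, the palindromic Smad-binding element.
Id2: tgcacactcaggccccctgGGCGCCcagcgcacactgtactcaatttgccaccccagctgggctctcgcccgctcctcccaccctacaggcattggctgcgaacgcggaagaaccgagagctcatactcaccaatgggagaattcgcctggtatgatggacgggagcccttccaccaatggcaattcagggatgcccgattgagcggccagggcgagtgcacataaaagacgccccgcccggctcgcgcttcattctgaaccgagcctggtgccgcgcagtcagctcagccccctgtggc
Id3: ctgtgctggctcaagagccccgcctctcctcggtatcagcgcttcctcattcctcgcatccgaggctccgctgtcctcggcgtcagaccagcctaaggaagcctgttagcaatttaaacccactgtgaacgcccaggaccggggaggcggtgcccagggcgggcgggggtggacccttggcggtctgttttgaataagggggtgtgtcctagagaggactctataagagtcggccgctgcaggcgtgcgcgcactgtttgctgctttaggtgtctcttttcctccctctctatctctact
Id4: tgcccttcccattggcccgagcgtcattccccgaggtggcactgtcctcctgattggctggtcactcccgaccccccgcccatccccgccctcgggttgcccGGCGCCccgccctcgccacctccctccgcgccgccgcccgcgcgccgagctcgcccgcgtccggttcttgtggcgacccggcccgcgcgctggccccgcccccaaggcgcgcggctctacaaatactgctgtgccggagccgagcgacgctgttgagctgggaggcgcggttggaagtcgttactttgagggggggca
Smad6: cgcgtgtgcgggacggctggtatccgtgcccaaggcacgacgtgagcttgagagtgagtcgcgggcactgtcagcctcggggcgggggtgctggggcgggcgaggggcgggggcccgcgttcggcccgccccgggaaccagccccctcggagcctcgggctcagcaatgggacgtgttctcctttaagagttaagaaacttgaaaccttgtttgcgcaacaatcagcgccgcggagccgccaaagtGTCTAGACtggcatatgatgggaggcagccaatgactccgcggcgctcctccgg
GGCGCC occurred once in Id2, beginning 231 bases before the start, and once in Id4, beginning 148 bases before it, and neither motif was in the Id3 window. In Smad6, GTCTAGAC began 4 bases before the start and ran across it. Both motifs read the same on either strand and do not overlap each other here. Windows were available for 34 members, 42 windows in all. GGCGCC lay in 13 of these 42 (31.0%) and in 11.9% of all 32851 windows. It is made of G and C only, and members' windows were not matched to all windows in G and C content. GTCTAGAC lay in 1 of the 42, that of Smad6, and in 0.213% of all windows. The short half-element GTCTG, searched on both strands, lay in 47.6% of members' windows and 49.6% of all. These matches describe letters in the windows and show no binding.

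Latent TGF-beta binding proteins, which anchor TGF-beta in the matrix, were led by Ltbp4 (chromosome 7, 27305136 to 27337692) at 126 and 130 TPM. Ltbp1 was at 21.5 and 22.6 TPM, Ltbp3 at 12.4 and 11.8 TPM and Ltbp2, which does not bind latent TGF-beta, at 0.970 and 0.620 TPM. Ltbp4 stood above Ltbp1 by a log2 difference of 2.54 ± 0.02, the ranges being far apart.

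By role, the median in replicate 1 ran from 4.88 TPM for ligands to 11.1 TPM for antagonists and modulators, 15.1 TPM for receptors, 16.7 TPM for Smads, 17.0 TPM for latent binding proteins and 177 TPM for Id genes. Replicate 2 gave 4.70, 10.7, 16.5, 17.9, 17.2 and 159 TPM in the same order, so that only Smads and latent binding proteins changed places. The log2 difference of the ligand median from the receptor median was -1.72 ± 0.13. The Smad and latent-protein medians differed from the receptor median by only 0.13 ± 0.02 and 0.11 ± 0.07. Both signs turned when means of log2 values were used (-0.50 and -0.19). Of the 47 neighbours in the order of all 48 members, 22 had ranges that did not overlap and 25 had ranges that did, 8 of which kept the same order within both libraries. Overlapping ranges included Id2 and Fstl1 at the top and the run from Fst to Tgfb2 in the middle.

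No member differed 2-fold between the pools with TMM library sizes, which set the pools equal over most genes. Each gene's counts in the pools were set against the library sizes with a two-sided exact binomial test, which covers counting error only and compares these libraries, not conditions. At an adjusted p below 0.05 and a log2 ratio of at least 1 in size, 0 of 48 members were called, beside 6.72% of the 20918 genes tested (0.808% higher and 5.91% lower in replicate 2). By the edgeR exact test with a common dispersion, which is taken from the same 2 libraries, 0 members were called too, beside 3.22% of genes, and 0 had an unadjusted p below 0.05, beside 6.84%. Members were as often higher (24) as lower (24) in replicate 2. Their median log2 ratio was -0.002, and that of all genes was -0.003. These ratios are relative to the bulk of genes: with library sizes from the spike-ins the ratios of all genes were shifted by a median of -0.68, all 48 members were then lower in replicate 2, and 4 of them (Fst, Ltbp2, Nog and Inhbb) passed the 2-fold limit, beside 16.8% of genes. The calls over all genes then split into 56 higher and 3448 lower instead of 169 and 1237.

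**Figure D2:**
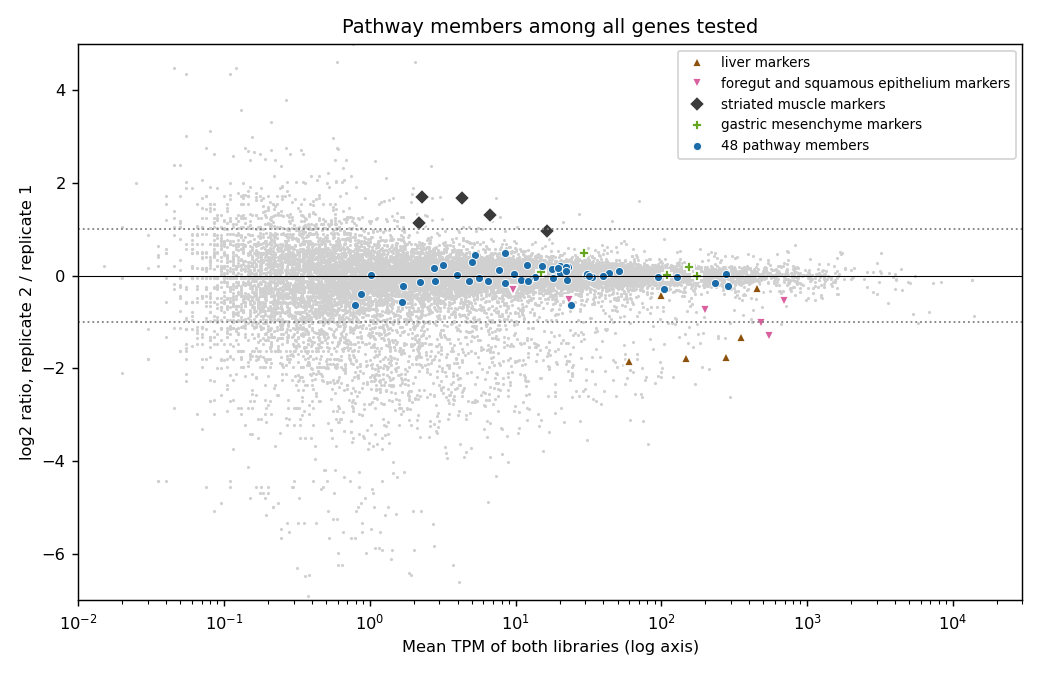
Mean TPM on a log axis (horizontal) against the log2 ratio of replicate 2 to replicate 1 (vertical) for each gene tested (grey), the 48 members (blue circles) and 4 marker lists, with dotted lines at a log2 ratio of 1 in either direction. The members lie between -0.63 and 0.48, the liver markers at or below -0.26 and the striated muscle markers at or above 0.97. The plotted range leaves out 23 genes.

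Counting error alone was exceeded by 20 members at any fold, 13 higher and 7 lower in replicate 2 (41.7% of 48, beside 32.0% of all genes). That split by direction was not counted over all genes. At a given ratio a gene with more counts passes more easily, and members were not matched to all genes in count. At a limit of 1.5-fold, 2 members passed, Fst and Ltbp2, beside 9.24% of genes. By ratio alone the antagonists Fst and Chrdl1 held the extremes in the 2 directions. Ltbp2 (-0.63) and Bmpr1b (0.44) lay within their counting intervals. Fst had 2007 counts in replicate 1 and 1332 in replicate 2. Its log2 ratio was -0.63 with a 95% counting interval from -0.73 to -0.53 (exact binomial test, adjusted p = 1.68e-34). Its unadjusted p in the edgeR exact test was 0.127. Nog went the same way, from 96 to 67 counts (log2 ratio -0.56, exact binomial test, adjusted p = 0.0475). Chrdl1 had 842 and 1213 counts (0.48, interval 0.36 to 0.61, exact binomial test, adjusted p = 9.25e-13). Grem1 had 554 and 703 counts (0.30, interval 0.14 to 0.46). The 5 antagonists past counting error thus split into Fst and Nog, lower in replicate 2, and Chrdl1, Grem1 and Fstl1, higher.

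Beside Fst and Nog, all 6 squamous epithelial markers were lower in replicate 2, with log2 ratios from -1.31 to -0.31 (median -0.64). Their summed levels were 2522 and 1391 TPM, and none of the 6 was below 1 TPM. All 6 liver markers (median -1.55) and all 5 red cell markers (-0.82) were lower too. All 5 of exocrine pancreas and all 5 of striated muscle were higher. The part of any of these cell types in the Fst and Nog values was not tested. Gastric mesenchyme markers, 5 in number, had a summed level of 462 and 506 TPM.

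Counting error was passed by 3 of 11 ligands, 5 of 12 receptors and 2 of 8 Smads, beside 32.0% of all genes. Those that passed were nearly all higher in replicate 2, by small amounts. The split by direction at any fold was not counted over all genes. Among ligands these were Bmp7 (log2 ratio 0.21), Tgfb3 (0.20) and Tgfb2 (0.14). Among receptors they were Bmpr1b (0.44, interval 0.28 to 0.59), Acvr2a (0.23), Tgfbr1 (0.20) and Eng (0.09), with Bmpr2 lower (-0.11). Both Smads that passed, Smad3 (0.21) and Smad4 (0.16), were higher. Among Id genes 3 of 4 passed, all lower: Id1 (-0.29, interval -0.36 to -0.21), Id2 (-0.23, interval -0.27 to -0.19) and Id3 (-0.15, interval -0.19 to -0.10). Id4 was at 0.003 (interval -0.10 to 0.11). Markers of several cell types had log2 ratios below 0 too, none of them below 1 TPM. Past counting error were all 5 of red cells (summed level 15455 and 9074 TPM) and all 6 of squamous epithelium and of liver. Of the 4 of macrophages (320 and 281 TPM) 1 was past it, and of the 3 of mesothelium (91.9 and 78.2 TPM) 2 were. By TPM the macrophage marker Csf1r was not lower (16.7 and 17.1 TPM). The part of these cell types in the Id values was not tested. Of the latent binding proteins Ltbp1 was higher (0.09) and Ltbp2 lower (-0.63, interval -1.02 to -0.25). The coefficient of variation between the pools beyond counting error, estimated over all genes, was 20.0%, and none of these members passed the edgeR exact test, which uses it.

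**Figure D3:**
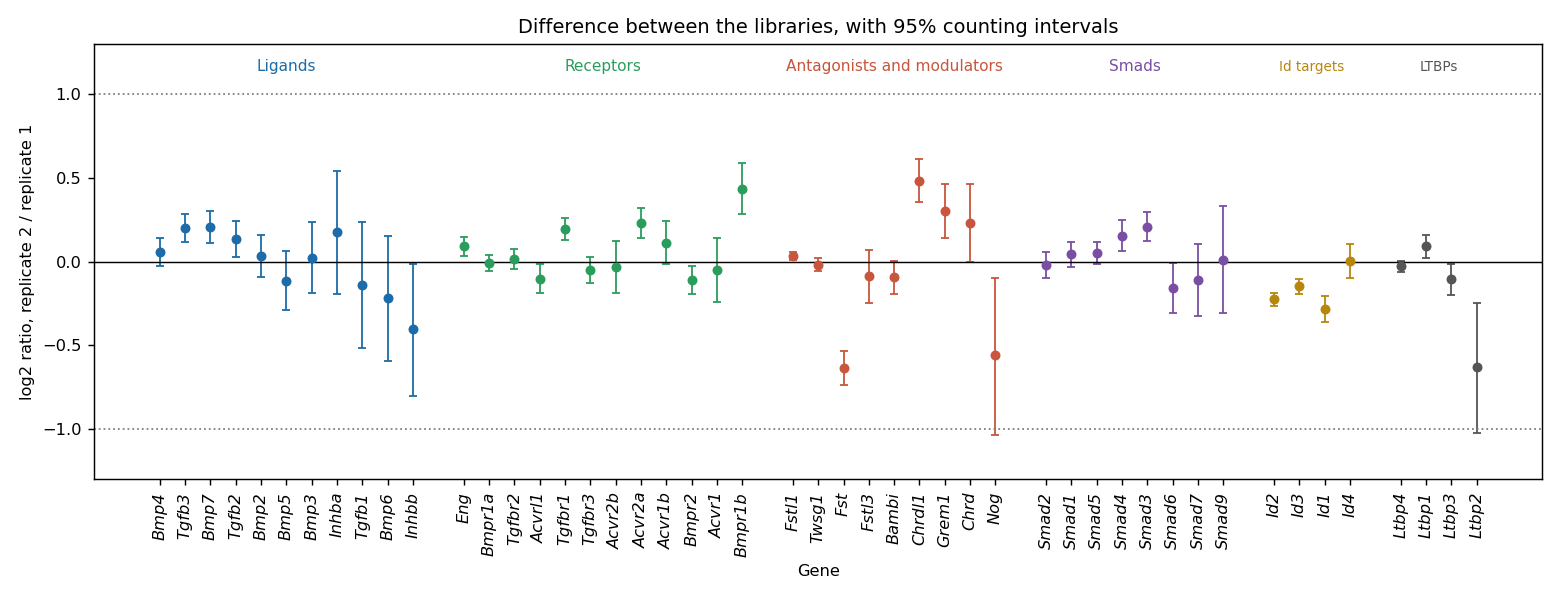
Log2 ratio of replicate 2 to replicate 1 (vertical) for each of the 48 members (horizontal), grouped by role, with bars for the 95% counting interval and dotted lines at a log2 ratio of 1 in either direction. Fst at -0.63 and Chrdl1 at 0.48 are the farthest apart among the modulators, and no point passes a dotted line.

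Transcript tables gave the share of each form, as estimates that divide shared reads among transcripts and for which no interval was used here. Of 45 members with at least 100 counts in each library, 8 had at least 2 transcripts with a mean share of 20% or more of the gene's TPM, and in 7 these differed in protein length or coding status. In the TGF-beta type II receptor, Tgfbr2-201, with 567 codons, held 68.3% and 65.2%, and Tgfbr2-202, with 592 codons, held 31.7% and 34.8%. Both forms of this receptor were thus present in each pool. Acvr2b divided between Acvr2b-201, with 528 codons (60.5% and 41.1%), and Acvr2b-202, with 536 codons (39.5% and 58.9%). The leading form of Acvr2b was not the same in both libraries, while the gene's TPM was 13.6 and 13.7. Ltbp1 divided between a short form, Ltbp1-202, with 1341 codons (42.5% and 38.5%), and a long form, Ltbp1-201, with 1712 codons (30.0% and 38.1%).

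Other members shared their TPM with transcripts that the annotation gives no coding sequence. In Tgfb2 the retained-intron transcript Tgfb2-205, of 898 bases, held 40.1% and 32.1%, and the coding Tgfb2-201, with 414 codons, held 32.7% and 38.4%. In counts, Tgfb2-205 had 174 and 141 and Tgfb2-201 had 892 and 1060, since TPM weights short transcripts more. The retained-intron transcript Bmp7-202 held 23.2% and 22.9% of Bmp7. Fstl1-202 held 19.7% and 20.4% of Fstl1, and Fstl3-202 held 29.1% and 14.4% of Fstl3. Shares of Bmp7 and Fstl1 moved by less than 1 percentage point between the pools, those of Acvr2b and Fstl3 by more than 10.

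**Figure D4:**
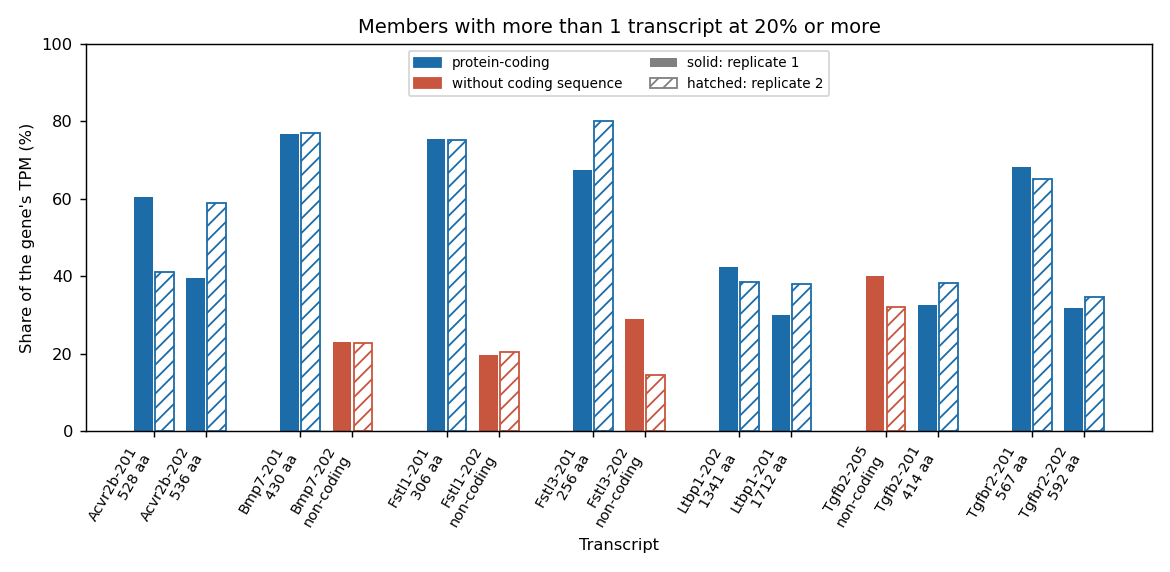
Share of the gene's TPM in percent (vertical) on each transcript with a mean share of 20% or more (horizontal), for the 7 members whose leading transcripts differ in protein length or coding status. Solid bars are replicate 1 and hatched bars replicate 2, blue transcripts are protein-coding and red ones have no coding sequence. The bars of Acvr2b cross over between the libraries, and those of Bmp7 and Fstl1 are level.

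A second list of the same pathways, 95 matched genes, showed where expression thinned out. At 1 TPM or more in both libraries were 68 of the 95 (71.6%), including all 22 intracellular regulators and 24 of 30 extracellular modulators, but 5 of 21 other ligands. Highest among the modulators were the glypican Gpc3 (489 and 473 TPM) and the proteoglycan Dcn (487 and 420 TPM), with the integrin subunit Itgav at 68.2 and 62.2 TPM. Among regulators Stub1 (185 and 186 TPM), Ncor1 (114 and 126 TPM) and Ctdsp1 (68.1 and 70.2 TPM) led. The ligands were led by Gdf10 (11.4 and 15.6 TPM), Inha, the inhibin alpha subunit (6.59 and 7.78 TPM), and Gdf11 (3.83 and 3.57 TPM). Of 8 receptors and co-receptors 4 were detected, led by the BMP co-receptor Rgmb (34.6 and 37.3 TPM), Tmem100 (22.4 and 22.8 TPM) and Rgma (6.69 and 7.68 TPM). Of 14 other target genes 13 were detected, led by Col1a1 (1128 and 1189 TPM), Tagln (270 and 253 TPM) and Tgfbi (134 and 128 TPM).

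In this second list 2 of the 87 genes tested (2.30%) were called between the pools, beside 6.72% of all genes, and both were scarce ligands. Gdf2, BMP9, which the liver makes, had 64 counts in replicate 1 and 30 in replicate 2 (log2 ratio -1.12, interval -1.81 to -0.49, exact binomial test, adjusted p = 0.00146, and 0.586 by the edgeR exact test). Of the 6 liver markers all were lower in replicate 2, summing to 1846 and 931 TPM, and none was below 1 TPM. Mstn, myostatin, which skeletal muscle makes, had 4 and 30 counts (2.72, interval 1.36 to 4.83, exact binomial test, adjusted p = 5.1e-05, and 0.0142 by the edgeR exact test). Of the 5 striated muscle markers all were higher in replicate 2, summing to 19.4 and 44.3 TPM, and none was below 1 TPM. The part of liver and muscle RNA in these values was not tested.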

How the data were processed

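Gene and transcript tables were deposited for each library. Per the text file deposited beside them, they rest on mm10 and annotation M4. The aligner, quantification program and strand setting are not given in the sources used here. Per the file headers, the authors' tables give expected counts (reads matching several features are divided), TPM, FPKM, posterior-mean TPM and, for transcripts, the share of the gene's TPM in percent. TPM was scaled by the authors with the spike-ins counted in (4.01% and 6.51% of TPM). Per the labels, RNA above 200 nucleotides, 10 ng input and ERCC spike-ins were used.

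Symbols, coordinates and transcript types came from GENCODE M21 on the same build (42462 of 43346 genes matched; all 48 members; 95 of 96 genes of the second list, Gdf1 not matched). Spike-ins and other features (86 and 85 counts) were left out of tests. Expected counts were rounded. Library sizes were TMM factors (edgeR 4.0.16, R 4.3.3) over 20918 genes whose counts in both libraries added to 10 or more. No group contrast exists, so the quasi-likelihood test could not be used. P-values were adjusted by the Benjamini-Hochberg method over all genes tested. The exact binomial test was tested on data simulated with counting error only. Its behaviour under the further spread between these pools was not tested. Ratios used a prior count of 0.5. Intervals are exact (Clopper-Pearson, 95%) and cover counting error only, since the tables record no molecular identifiers. No test of levels is given, since an exact permutation test over 2 libraries cannot pass 0.05. The separation of ranges was used in its place.

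All members were named by rule. From the second list, the 3 highest of each class and every called gene were named, and isoforms were named where transcripts differed in coding status or protein length. Members and lists were chosen with earlier results of these data known. Reads of 8 members with fractional counts (Bmp5, Tgfb3, Bmpr1a, Acvr2a, Fstl3, Id4, Ltbp2 and Ltbp3, tolerance 0.005) were shared with other features, and 17 members have exons that overlap another gene's, which cannot be told apart without the strand setting. These include Bmp4, Tgfb2, Tgfb3, Eng, Fst and Id4. Alternatives were other thresholds, units, library sizes (DESeq2 1.42.0 among them), filters, tests and single libraries. The restriction to protein-coding transcripts was added after the data were seen.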

Additional observations from a re-analysis of the deposited data

How the results depend on the processing

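No paired analysis was possible because the series has 1 group. The number of members detected stayed between 35 (at 5 TPM) and 48 (at 0.5 TPM, and from CPM), and each library alone gave 46. Spike-in library sizes shifted the log2 ratios of all genes by a median of -0.68. Unadjusted for that shift, they called 4 members lower in replicate 2 (Fst at -1.31, Ltbp2 at -1.31, Nog at -1.24 and Inhbb at -1.08) and 3504 genes (16.8%). Relative to that shift no member passed a log2 ratio of 1. Taking the shift off returns the TMM ratios up to a constant, so this is no separate check. At a limit of 1.5-fold, 2 members were called, Fst (-0.63) and Ltbp2 (-0.63). A minimum of 50 counts gave 855 called genes and the edgeR exact test 674, against 1406, with 0 members in both.

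CPM, which is not corrected for length, moved the role medians relative to receptors to -2.14 for ligands, -1.19 for antagonists, 1.25 for Id genes and 0.21 for latent binding proteins, and turned that of Smads to -0.19. It also turned Smad1 against Smad5 (-0.48), the only 1 of 32 pairs of a family's highest member with another whose order changed under the alternatives run. Among the lower members, CPM placed Bmpr2 (0.83 under Tgfbr2) above Acvr2a (1.12) and Acvr2b (2.68), and Bmpr1b (3.26 under Bmpr1a) above Acvr1 (3.92), and replicate 2 alone also placed Bmpr1b above Acvr1. Means of log2(TPM + 0.1) gave -1.23 for ligands, -0.11 for antagonists, -0.50 for Smads, 3.01 for Id genes and -0.19 for latent binding proteins. Protein-coding transcripts alone gave -0.69 for antagonists, 0.11 for Smads and 0.024 for latent binding proteins, and posterior-mean TPM gave 0.18 for Smads. The cause of these shifts was not tested. Nog, Inhbb and Ltbp2 rest on 67 to 143 counts in a library, which limits their precision.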
